A study of Mus musculus with 12 samples.

Results

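The 6 genes described here encode the core enzymes of adipocyte lipolysis and their closest regulators. They are the lipases Pnpla2, Lipe and Mgll, the coactivator Abhd5, the inhibitor G0s2 and the phosphodiesterase Pde3b. They were taken by gene symbol from the array annotation, and each was represented by 1 transcript cluster, a set of array probes summarised as a single value. They are 6 of 19480 genes with a symbol, which are measured by 19509 of the 22104 transcript clusters. The cells were 3T3-L1, a line of mouse fibroblast-like preadipocytes that fill with lipid once a hormone cocktail starts their differentiation. Control cells received only the vehicles, ethanol and DMSO. The second group received alpha-linolenic acid (ALA), an essential omega-3 fatty acid, at a dose of 50 µM; their medium held albumin stripped of fatty acids, at 2%. The third received an inhibitor of delta-6-desaturase (D6D) at 5 µM, and the fourth received ALA and the inhibitor together. D6D catalyses the first step by which ALA is made into longer omega-3 fatty acids. The labels do not name the inhibitor compound, and state albumin only for the ALA medium. Treatment ran over days 0 to 8 of differentiation, and every group was given the cocktail and then medium with 5 µg/ml insulin. Cells were harvested on day 8. Each treatment was hybridised once at each of passages 6, 7 and 8, giving 3 arrays per treatment and 12 in all. All arrays come from 1 cell line, and nothing in the labels says that the passages were independent experiments, so p-values measure the spread between these cultures. No lipolytic stimulus is named in the labels, and the values are RNA levels, not rates of lipolysis.

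Lipolysis releases fatty acids from stored triacylglycerol in steps. Pnpla2 (adipose triglyceride lipase) removes the first fatty acid, Lipe (hormone-sensitive lipase) acts mainly on the resulting diacylglycerol, and Mgll (monoacylglycerol lipase) cleaves the last fatty acid from glycerol. Abhd5, also called CGI-58, activates Pnpla2, while G0s2 binds and inhibits it. Catecholamines raise cyclic AMP and activate protein kinase A, which phosphorylates Lipe and the droplet protein perilipin 1. Pde3b, activated by insulin, degrades cyclic AMP and so restrains lipolysis.

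RefSeq promoter windows were matched for 5 of the 6 members, and Pde3b was not matched. The table holds 7 windows for these 5 members. Windows of the members with the largest and the smallest spread over the arrays, Mgll and Pnpla2, are shown beside the RNA values given below. Each holds the 250 bases before an annotated start site in build GRCm38.p6, printed 5′ to 3′ along the gene's strand. The Mgll window shown is chr6:88724162-88724411 on the plus strand, and it overlaps the gene model Gm26588. The Pnpla2 window is chr7:141454938-141455187 on the plus strand, and it overlaps no other gene model. Capitals mark matches to CACGTG (an E-box) or to GGGCGG (a GC box, CCGCCC when on the opposite strand).
Mgll: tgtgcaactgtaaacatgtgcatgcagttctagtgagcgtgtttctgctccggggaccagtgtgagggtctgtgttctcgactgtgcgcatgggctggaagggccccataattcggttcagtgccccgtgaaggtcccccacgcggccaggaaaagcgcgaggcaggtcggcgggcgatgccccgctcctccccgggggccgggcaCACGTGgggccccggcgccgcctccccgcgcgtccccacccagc
Pnpla2: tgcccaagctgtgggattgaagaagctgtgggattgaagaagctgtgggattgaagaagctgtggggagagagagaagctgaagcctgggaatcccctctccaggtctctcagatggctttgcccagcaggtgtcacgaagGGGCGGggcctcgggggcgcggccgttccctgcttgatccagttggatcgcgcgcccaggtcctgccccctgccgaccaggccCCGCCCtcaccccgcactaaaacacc
The Mgll window shown held an E-box, which runs from 44 to 39 bases before the start. A second Mgll window, for a start site farther along the gene, held a GC box and no E-box, and 1 of the Lipe windows also held CACGTG. The Pnpla2 window held 2 GC boxes, the nearer of which runs from 26 to 21 bases before the start. Both strands were searched for these motifs and for AGGTCA and TGACG. The matches in the windows shown did not overlap one another. Among 32851 windows of the same length, 6.02% held CACGTG, 32.7% held GGGCGG, 14% held AGGTCA and 17.8% held TGACG. The matches describe the letters only.

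Array-wide quality frames the values. Array medians lay between 6.14 and 6.27 on the log2 scale. The ALA array of passage 7 stood apart from the rest, with a correlation of 0.976 to 0.987 with the other arrays, against 0.989 to 0.994 among the other 11. All 14 measured adipocyte markers lay above the array median in every group. All 8 endothelial markers lay below it, as did 8 of 9 macrophage markers.

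In every one of the 7 treatment comparisons, 0 of 22104 clusters (0%) had an adjusted p under 0.05 (limma on log2 signals, Benjamini-Hochberg over all clusters). At an unadjusted p under 0.05 the number of clusters ran from 753 for ALA against control to 1936 for the averaged inhibitor comparison. The 6 members are therefore described by their values, their differences and the 95% intervals, and none was called. The averaged inhibitor comparison sets all 6 arrays with the inhibitor against all 6 without it. Without a passage term, the Mgll and Pde3b intervals there lay wholly below 0. With passage as a block, the G0s2 interval also lay below 0 (-0.45 to -0.02). Intervals and p-values carry no passage term unless a block is named. Mgll was 0.705 times as high with the inhibitor and Pde3b was 0.831 times as high. Pnpla2 had 0.995 times the signal, with an interval of 0.892 to 1.11.

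**Figure D1:**
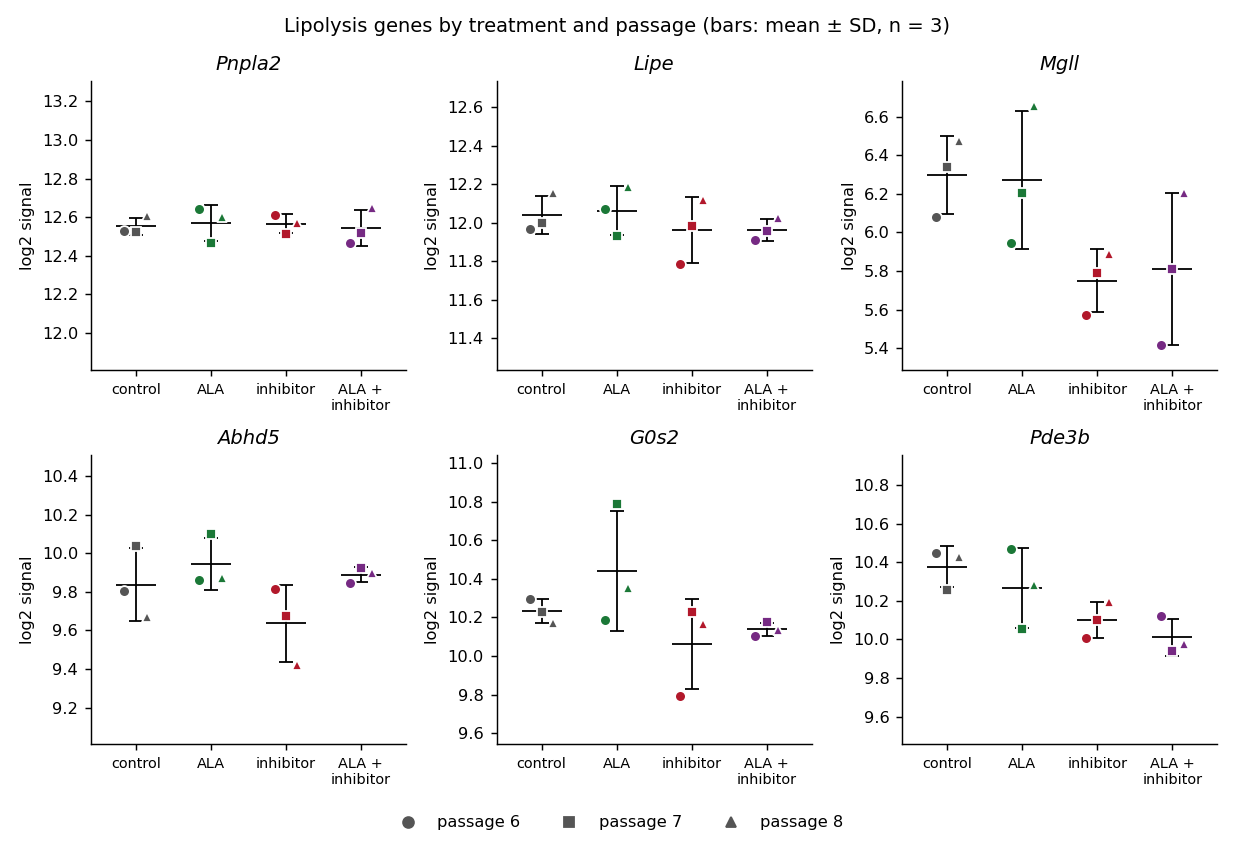
Log2 signal of the 6 members on each of the 12 arrays, by treatment, with symbols for passages 6, 7 and 8; bars are the mean ± SD of 3 arrays, and every panel spans the same number of log2 units. Mgll is below its control arrays on all 3 arrays with the inhibitor alone, whereas Pnpla2 stays between 12.47 and 12.64 on all 12 arrays.

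Pnpla2, the enzyme of the first step, was the steadiest member. Its log2 signal was 12.53, 12.52 and 12.60 in the control cultures of passages 6, 7 and 8, and 12.64, 12.47 and 12.60 with ALA. With the inhibitor it was 12.61, 12.51 and 12.57, and with ALA plus the inhibitor 12.47, 12.52 and 12.64. All 4 groups overlapped. Its whole range was 0.18 log2 units, and only 0.823% of all clusters had a smaller SD over the 12 arrays. The difference was -0.01 with the inhibitor averaged over both ALA states (95% interval -0.16 to 0.15, limma adjusted p = 0.98). With ALA averaged over both inhibitor states it was 0.00 (95% interval -0.16 to 0.16, adjusted p = 1). These intervals bound any difference in Pnpla2 RNA more tightly than for the other members.

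Lipe, the diacylglycerol hydrolase of the second step, also varied little. Control cultures had log2 signals of 11.97, 12.00 and 12.15 at passages 6, 7 and 8. The corresponding ALA values were 12.07, 11.93 and 12.18. Inhibitor cultures measured 11.78, 11.98 and 12.12, and cultures with both agents 11.91, 11.96 and 12.02. The lowest array was the inhibitor culture of passage 6, and all groups overlapped. With the inhibitor averaged over both ALA states, Lipe differed by -0.09 log2 units (95% interval -0.27 to 0.10, limma adjusted p = 0.74), and 5 of 6 same-passage differences were below 0. It was -0.04 without the inhibitor array of passage 6. The ALA difference averaged over both inhibitor states was 0.01 (95% interval -0.17 to 0.20, adjusted p = 1).

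Mgll, which completes the release of fatty acids and also degrades the endocannabinoid 2-arachidonoylglycerol, was the member with the widest spread. Its log2 signal was 6.08, 6.34 and 6.47 in control cultures of passages 6, 7 and 8. With the inhibitor it was 5.57, 5.79 and 5.89. The highest inhibitor array lay below the lowest control array. Non-overlap of this kind, with the inhibitor lower, was found for 4.97% of all clusters. The difference was -0.55 ± 0.21 (SE) log2 units, a level 0.684 times that of the control (95% interval 0.497 to 0.942), with a limma adjusted p of 1.

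In the presence of ALA, Mgll measured 5.95, 6.21 and 6.66 without the inhibitor and 5.41, 5.81 and 6.20 with it. These groups overlapped, because the passage 8 culture with both agents lay above the passage 6 culture with ALA. The difference was -0.46 ± 0.21 (SE, with a 95% interval of -0.92 to 0.00 and a limma adjusted p of 0.68). With passage as a block the difference was unchanged and its interval was -0.71 to -0.21. It was -0.26 without the passage 6 array of both agents and -0.66 without their passage 8 array. This comparison and the one against the control share no arrays, but they share the passages and the estimate of spread. Within a passage the inhibitor differences were close to one another. Without ALA they were -0.51, -0.55 and -0.59 log2 units at passages 6, 7 and 8, and with ALA -0.53, -0.40 and -0.45. The averaged inhibitor difference was -0.50 ± 0.15 (SE; 95% interval -0.83 to -0.18), with an adjusted p of 0.5. All 6 same-passage differences were below 0, which held for 4.52% of all clusters.

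Mgll was above its array's median signal on only 4 of the 12 arrays. Its SD over the arrays was larger than that of 94.6% of clusters. Its values also followed passage: averaged over the 4 treatments they were 5.75, 6.04 and 6.31 at passages 6, 7 and 8. The order of passage 6 below 7 below 8 was seen in all 4 treatments, as for 0.728% of all clusters. Passage 8 exceeded passage 6 by 0.40 in control cultures, 0.71 with ALA, 0.32 with the inhibitor and 0.79 with both. The passage differences were thus of a size with the inhibitor difference. They were not tested, because the 4 arrays of a passage may share a source culture. Lipe was the other member in which passage 8 exceeded passage 6 in all 4 treatments, with means of 11.93, 11.97 and 12.12, an order of passages 8 and 6 shared by 13.4% of all clusters.

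**Figure D2:**
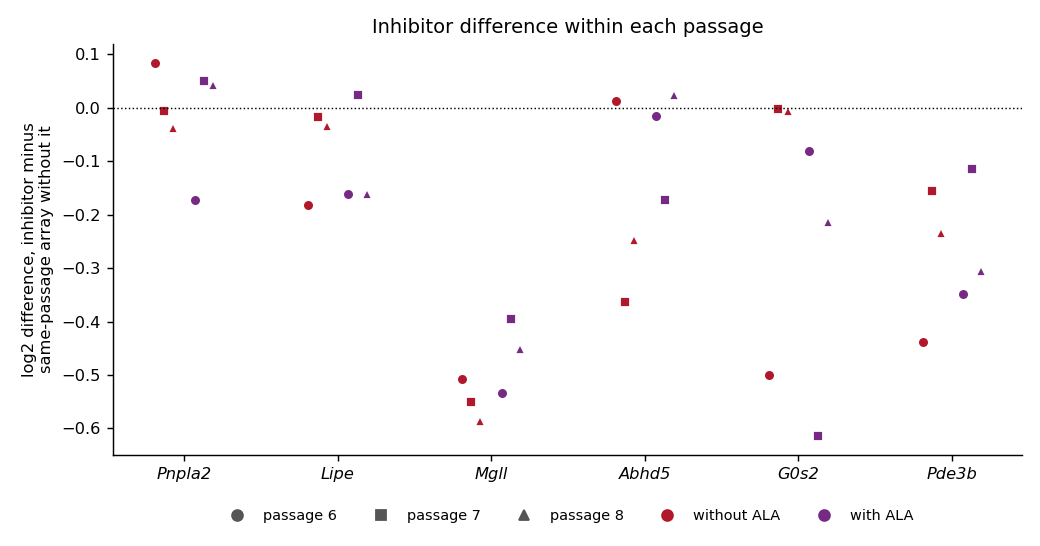
Log2 difference of the 6 members between same-passage cultures with and without the D6D inhibitor, without ALA and with ALA. Points are single differences, with a symbol for each passage. The Mgll and Pde3b points lie 0.40 to 0.59 and 0.12 to 0.44 log2 units below 0. All 6 G0s2 points lie below 0 or almost on it, and the Pnpla2 points lie on both sides.

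Abhd5, the activator of Pnpla2, showed its clearest separation between the cultures with the inhibitor alone and those with both agents. With the inhibitor its log2 signal was 9.81, 9.68 and 9.42 at passages 6, 7 and 8, and with both agents it was 9.85, 9.93 and 9.90. These groups did not overlap, and non-overlap with ALA higher was found for 4.82% of all clusters in that comparison. The difference was 0.25 ± 0.14 (SE; 95% interval -0.04 to 0.55, limma adjusted p = 1), and 0.14 without passage 8. Control cultures had 9.80, 10.04 and 9.67 and ALA cultures 9.86, 10.10 and 9.87, which overlapped. Averaged over both inhibitor states the ALA difference was 0.18 (95% interval -0.03 to 0.39, adjusted p = 1). The ALA difference was 0.10 without passage 8. With passage as a block it had an interval of 0.0004 to 0.36 (limma adjusted p = 0.92). It was above 0 in 6 of 6 same-passage comparisons, which held for 1.85% of all clusters. The separate differences ran from 0.03 to 0.48. For the inhibitor, averaged over both ALA states, Abhd5 differed by -0.13 (95% interval -0.34 to 0.08, adjusted p = 0.68).

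G0s2, the inhibitor of Pnpla2, had differences that moved with single arrays. Control cultures had log2 signals of 10.29, 10.23 and 10.17, and ALA cultures 10.19, 10.79 and 10.35. The highest of the 12 values was on the ALA array of passage 7, the one that stood apart from the rest. With the inhibitor the values were 9.79, 10.23 and 10.16, and with both agents 10.10, 10.17 and 10.14. The ALA and ALA plus inhibitor groups did not overlap, as for 6.85% of clusters with the inhibitor lower. Their difference was -0.30 (95% interval -0.64 to 0.04, limma adjusted p = 0.69), and it was -0.13 without the ALA array of passage 7. Against the control, the inhibitor difference was -0.17 (95% interval -0.51 to 0.17, adjusted p = 1), of which the passage 6 pair carried most: -0.50, against -0.00 and -0.01 at passages 7 and 8. Averaged over both ALA states it was -0.24 (95% interval -0.48 to 0.01, adjusted p = 0.57), and -0.15 without the ALA array of passage 7. With passage as a block the averaged difference had an interval of -0.45 to -0.02 (limma adjusted p = 0.37). Like Mgll and Pde3b, G0s2 was below its same-passage value without the inhibitor in 6 of 6 comparisons, as for 4.52% of all clusters. However, 2 of these differences rounded to -0.00 and -0.01. G0s2 was 0.21 higher with ALA than in the control (95% interval -0.13 to 0.55, adjusted p = 1). That value came to 0.04 when passage 7 was left out of every group.

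Pde3b, the insulin-activated phosphodiesterase, was lower with the inhibitor at each passage. Its log2 signal was 10.45, 10.26 and 10.43 in control cultures and 10.01, 10.10 and 10.19 with the inhibitor. The highest inhibitor value lay just below the lowest control value, so the groups did not overlap, as for 4.97% of all clusters. The difference was -0.28 (95% interval -0.55 to -0.0028, limma adjusted p = 1). With ALA the values were 10.47, 10.06 and 10.28 without the inhibitor and 10.12, 9.94 and 9.97 with it. These groups overlapped through the passage 7 culture with ALA alone, and the difference was -0.26 (95% interval -0.53 to 0.02, adjusted p = 0.69). It was -0.16 without the ALA array of passage 6. The averaged inhibitor difference was -0.27 ± 0.09 (SE; 95% interval -0.46 to -0.07, adjusted p = 0.5), and all 6 same-passage differences were below 0, as for 4.52% of all clusters. ALA, averaged over both inhibitor states, gave -0.10 (95% interval -0.29 to 0.09, adjusted p = 1).

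**Figure D3:**
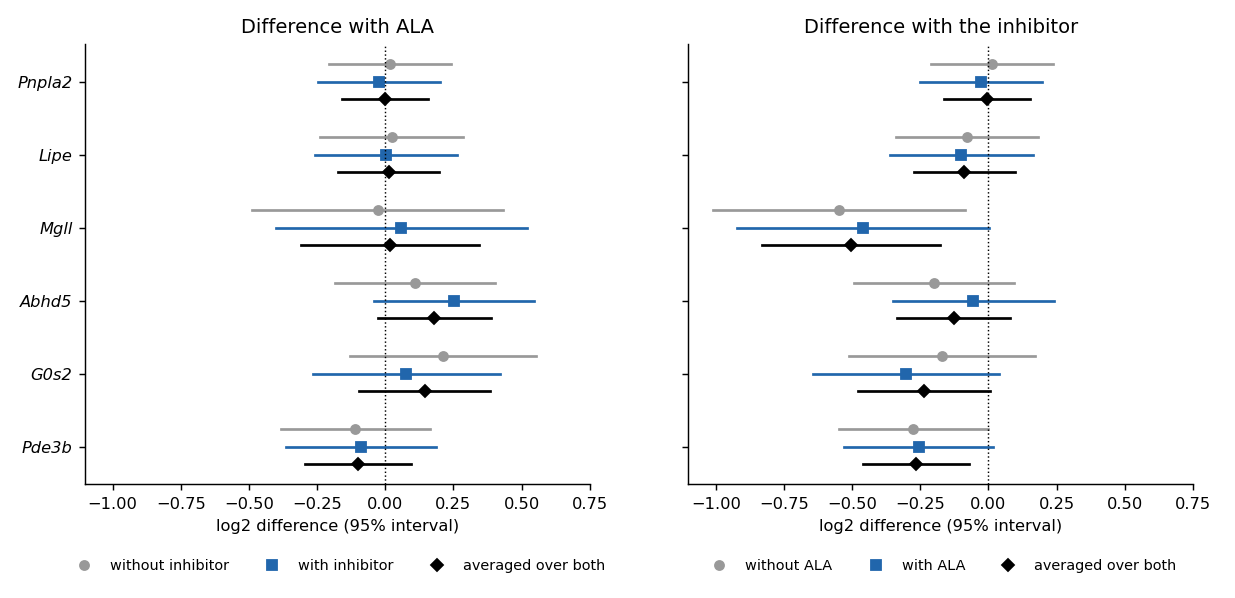
Log2 difference of each member with the D6D inhibitor and with ALA, for the separate comparisons and averaged over the other agent; points are limma estimates and bars their 95% intervals. In the averaged inhibitor comparison the intervals of Mgll and Pde3b lie below 0, and in the averaged ALA comparison all 6 intervals include 0. The fit shown carries no passage term.

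Counted over the members, the averaged inhibitor difference was below 0 in 6 of 6, as in 53.3% of all clusters, with a median of -0.18 against -0.01 for all clusters. The count was 5 of 6 when each array was centred on its median, with a member median of -0.14 against 0.03 for all clusters. Pnpla2 is the member that lies closest to 0. At an unadjusted p under 0.05, 2 of 6 members (Mgll and Pde3b) were lower and none higher, where 5.18% of all clusters were lower. In the inhibitor against control comparison the same 2 members passed this limit, where 2.64% of all clusters were lower. The study's design text names a limit of an unadjusted p under 0.01 for 3 comparisons, and none of the 6 members reached it in any of them without a passage term. With passage as a block, Mgll had an unadjusted p of 0.0024 (limma, adjusted p = 0.32) for ALA plus inhibitor against ALA. That comparison was the one that met the pairing rule given under the processing. For inhibitor against control the block gave Mgll an unadjusted p of 7.2e-04 (limma, adjusted p = 0.4). Ranked by p with the block, Mgll was number 155 and number 39 of 22104 clusters in these comparisons. The share of all clusters under 0.01 was not counted with the block. Without a passage term, 0.525% of all clusters reached that limit for ALA against control and 0.855% for inhibitor against control. For ALA plus inhibitor against ALA, also without that term, the share was 1.47%. In the averaged comparison, which the design text does not name, Mgll was under that limit (unadjusted p = 0.0054, limma), with 1.9% of all clusters.

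For ALA the members were divided. The averaged difference was above 0 in 4 of 6 members, with a median of 0.01 against 0.00 for all clusters, and 0 of 6 had an unadjusted p under 0.05, which 3.53% of all clusters had. The ALA comparisons also differ in albumin as far as the labels state it, so ALA and albumin cannot be told apart. Whether the inhibitor difference itself changed with ALA was tested as an interaction. Each member had an adjusted p of 1 for that term, with Mgll at 0.09 (95% interval -0.56 to 0.74) and Pde3b at 0.02 (95% interval -0.37 to 0.41). The Mgll interval includes values as large as the inhibitor difference.

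The cultures with the inhibitor also had lower values for markers of adipocytes and of preadipocytes. The mean log2 signal of the 14 adipocyte markers was 11.18 ± 0.12 (SD, n = 3) in control, 11.22 ± 0.09 with ALA, 11.01 ± 0.17 with the inhibitor and 11.03 ± 0.10 with both. For the 10 preadipocyte markers the corresponding means were 8.98 ± 0.10, 9.04 ± 0.16, 8.77 ± 0.13 and 8.85 ± 0.13. In the averaged inhibitor comparison, 12 of 14 adipocyte and 10 of 10 preadipocyte markers had differences below 0, as did 53.3% of all clusters. With arrays centred on their medians these counts were 10 and 9, and without the ALA array of passage 7 they were 12 and 8. The list medians were -0.11 for adipocyte and -0.20 for preadipocyte markers, against -0.01 for all clusters. At an unadjusted p under 0.05 (limma), 3 of 14 and 4 of 10 were lower and none higher, where 5.18% of all clusters were lower. The adipocyte markers differed widely: Pck1 was lowest at -1.07, while Fabp4 and Lpl each differed by -0.02. Lipe is itself 1 of the 14 adipocyte markers. The part of these marker differences in the Mgll and Pde3b values was not tested. In bulk RNA, fewer cells of a type and less RNA per cell cannot be told apart. The 9 macrophage markers averaged 4.52 to 4.66 over the 4 groups, with 1 of 9 above the array median.

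Around the members, 106 further genes of the lipolytic pathway were measured, in 8 lists by role. In the averaged inhibitor comparison, 0 of 106 had an adjusted p under 0.05. At an unadjusted p under 0.05, 13 were lower and 2 higher, where 5.18% of all clusters were lower and 3.57% higher. Without the ALA array of passage 7 these counts were 11 and 0. Differences were below 0 for 71 of 106 genes, with a median of -0.04 against -0.01 for all clusters. With arrays centred on their medians the count was 53 of 106, with a median of -0.0010 against 0.0283 for all clusters. The count below 0 thus depended on the scaling, while the median of the 106 genes stayed below that of all clusters.

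The list of receptors that restrain lipolysis, which also holds the 3 inhibitory G protein subunits Gnai1, Gnai2 and Gnai3, had 10 measured genes and a median of -0.07. Differences were below 0 for 7 of the 10 and above 0 for 3. With arrays centred on their medians, 5 were below 0 and 5 above. The list median was then -0.03 against 0.03 for all clusters. Before centring, the list held 4 of the 13 lower genes. They were Ffar4 (a receptor for long-chain fatty acids), Hcar1 (the lactate receptor), Ffar2 (a receptor for short-chain fatty acids) and Hcar2 (the receptor for niacin and ketone bodies). Ffar4 had the largest difference of all 106 genes, at -0.77 ± 0.16 (SE; 95% interval -1.12 to -0.43, limma adjusted p = 0.5). Its log2 signal was 9.92, 9.68 and 9.48 in control cultures and 9.44, 9.65 and 9.32 with ALA. It was 8.18, 8.74 and 9.21 with the inhibitor and 8.73, 8.83 and 9.17 with both. All 6 arrays with the inhibitor lay below all 6 without it, which held for 0.33% of all clusters. Hcar1 differed by -0.36, Ffar2 by -0.29 and Hcar2 by -0.25 (adjusted p = 0.5, 0.5 and 0.51).

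Among the lipase partners and droplet proteins, 3 of 20 were lower and 1 higher at an unadjusted p under 0.05, with a list median of -0.08. Aqp7, the channel through which adipocytes release glycerol, measured 9.69, 9.75 and 9.90 in control cultures and 9.02, 8.90 and 9.71 with the inhibitor. With ALA it was 9.79, 9.97 and 10.18, and with both agents 9.03, 8.87 and 9.93. Its passage 8 arrays with the inhibitor lay within the range of the arrays without it. The averaged difference was -0.64 ± 0.18 (SE, limma adjusted p = 0.5). Bscl2 (seipin, a droplet assembly protein) differed by -0.45 and Serpinf1 (a secreted ligand that binds Pnpla2) by -0.27, both with an adjusted p of 0.5. Fabp5, a fatty acid carrier, differed by 0.28 (limma adjusted p = 0.55). It was higher in 6 of 6 same-passage comparisons, as for 3.84% of all clusters. Plin1, the droplet protein that holds Abhd5 away from Pnpla2, differed by -0.11 (adjusted p = 0.73).

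In the signalling lists the same limit of an unadjusted p under 0.05 was used, at which 5.18% of all clusters were lower. Of 13 receptors and cyclase genes, 1 was lower: Mc2r, the corticotropin receptor, at -0.31 (limma adjusted p = 0.53). Of 10 kinase genes, 1 was lower: Prkg1, the cyclic GMP-dependent kinase, at -0.39 with a mean of 4.32 against 4.71 and an adjusted p of 0.5. Prkaca, the main catalytic subunit of protein kinase A, differed by -0.06 and Gnas, the stimulatory G protein subunit, by 0.02 (adjusted p = 0.8 and 0.93). In the insulin arm, the adaptors Irs1 (-0.30) and Irs2 (-0.26) were the 2 lower genes of 12, with adjusted p of 0.56 and 0.53. Irs1 was lower in 6 of 6 same-passage comparisons, as for 4.52% of all clusters. Insr, the insulin receptor, differed by -0.00 and Akt2 by -0.02 (adjusted p = 0.99 and 0.92). The medians of the kinase list (-0.03) and of the insulin arm (-0.03) turned above 0 when arrays were centred on their medians (0.02 and 0.01). The median of all clusters was then 0.03.

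Of the 11 other phosphodiesterases, Pde2a was lower and Pde7b higher at an unadjusted p under 0.05. Over all clusters, 5.18% were lower and 3.57% higher at that limit. Pde2a differed by -0.27 (95% interval -0.45 to -0.09, limma adjusted p = 0.5), a difference of the same size as that of Pde3b. The list's median was -0.09. The 18 other hydrolases of neutral lipids and monoacylglycerol had a list median of 0.06, and 13 of the 18 were above 0. None of the 18 had an unadjusted p under 0.05. Abhd6 and Abhd12, which like Mgll hydrolyse 2-arachidonoylglycerol, differed by 0.22 and 0.12 (adjusted p = 0.71 and 0.7). Among 12 transcriptional regulators of lipase genes, 10 had differences below 0, where 53.3% of all clusters did. At an unadjusted p under 0.05, 1 was lower, where 5.18% of all clusters were lower. The lower gene was Cebpa, a factor of adipocyte differentiation, at -0.25 ± 0.07 (SE, limma adjusted p = 0.5). Its values were 9.71 to 9.90 on the 6 arrays with the inhibitor and 10.01 to 10.09 on the 6 without. Cebpa and Ffar4 were the 2 genes of the 106 in which the inhibitor arrays all lay below the others. Pparg, the main regulator of adipocyte genes, differed by -0.13 (adjusted p = 0.61).

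**Figure D4:**
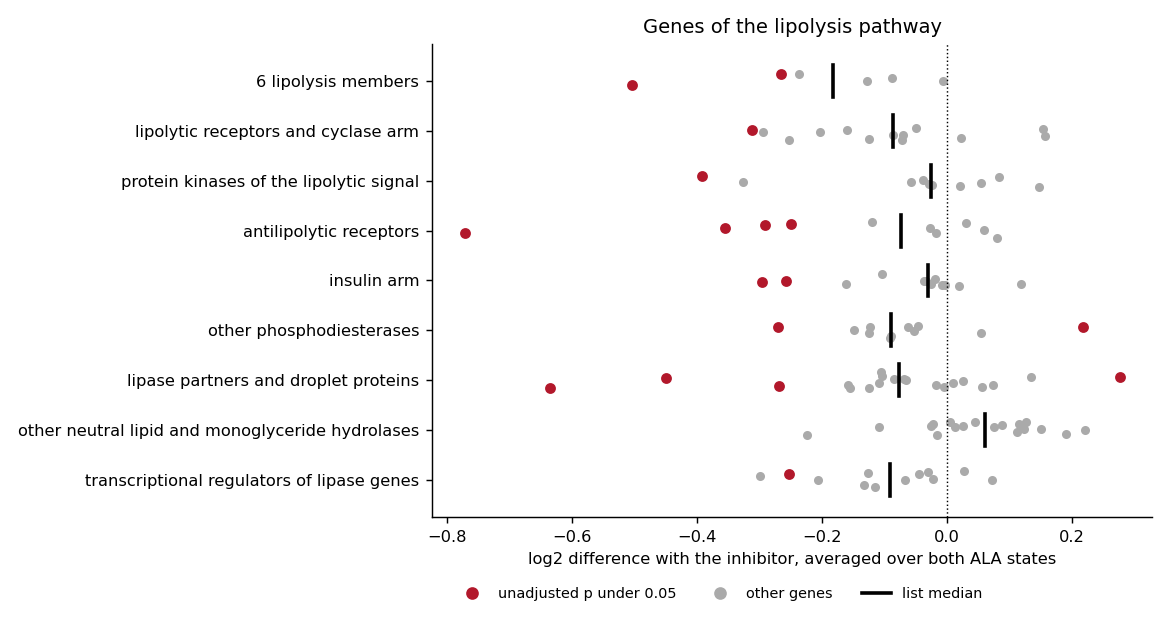
Log2 difference with the D6D inhibitor, averaged over both ALA states, of the 6 members and the 106 pathway genes by role, with each list's median marked. Ffar4 (-0.77) and Aqp7 (-0.64) lie farthest below 0, and the list of other hydrolases is the one with a median above 0 (0.06).

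With ALA averaged over both inhibitor states, 2 of the 106 genes were higher and 2 lower at an unadjusted p under 0.05, where 2.11% of all clusters were higher and 1.43% lower. Prkaa2, a catalytic subunit of AMP-activated protein kinase, was 0.27 higher and Pnpla5, a relative of Pnpla2, 0.29 higher. Plin5, a droplet protein that binds Pnpla2, differed by -0.31 and Pde2a by -0.25. Each of these had a limma adjusted p of 1. Without the ALA array of passage 7 the counts were 3 lower and 0 higher, with Prkaa2 at 0.26 and Pnpla5 at 0.25. Pnpla5 and Plin5 had mean log2 signals of 4.40 and 4.24 with ALA, below the array medians.

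The members did not vary as 1 group over the arrays. Of the 15 pairs, Lipe and Mgll had the highest correlation over the 12 arrays (r = 0.70) and Pnpla2 and G0s2 the lowest (r = -0.47). The arrays share treatments and passages, so these values are descriptions. After treatment and passage means were removed, which leaves 6 residual degrees of freedom, Lipe and Pde3b had r = 0.98 and Lipe and Mgll r = -0.35. The order of the pairs thus differed between the whole values and the residuals. Patterns over the 12 arrays were compared among genes with a mean above the array median, 10042 or 10043 of the 19480 genes depending on the member. The genes most like a member were Hp, Ap3d1 and Dlk1 for Mgll (r = 0.96, 0.94 and 0.94). For Pde3b they were Net1, Apol6 and Atp10d (r = 0.89, 0.83 and 0.83). For Lipe they were Klf6, Cd59b and Zfp266 (r = 0.96, 0.95 and 0.93), and for Pnpla2 H2bc3, Prpf3 and St7 (r = 0.90, 0.89 and 0.87). Dlk1 encodes a preadipocyte surface protein and is among the 10 preadipocyte markers, and Hp encodes the plasma protein haptoglobin, which adipocytes also make. For G0s2 the nearest gene was Nog and for Abhd5 9430038I01Rik (r = 0.89 and 0.93).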

How the data were processed

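Deposited values are log2 signals per transcript cluster, made by the authors with RMA (background correction, quantile normalization and probe summary) per the submitters' processing notes; the software version and genome build are not given in the sources used here. All 12 arrays and 22104 clusters were fitted together with limma 3.58.1 in R 4.3.3, with 1 coefficient per treatment and 8 residual degrees of freedom. P-values were adjusted over all clusters (Benjamini-Hochberg, 0.05), and the code was tested on simulated data. Depth has no counterpart on arrays, whose number limits the precision. Of the clusters, 19509 had 1 gene symbol and 2595 none.

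The members and gene lists were chosen with earlier results of these data known. Pathway genes with an unadjusted p under 0.01, and up to 4 per list under 0.05, are named, with some of known role chosen after their values were seen. Pathway genes that are listed but not measured were not analysed here. Genes most like a member are those with the highest Pearson r among genes with a mean above the array median. By the rule that each same-passage correlation of deviations be over 0.1, passage numbers paired the samples only for ALA plus inhibitor against ALA. The correlations there were 0.16, 0.16 and 0.24, and the block changed no call. They were 0.19, 0.08 and 0.36 for inhibitor against control, and 0.14, 0.09 and 0.27 for ALA plus inhibitor against inhibitor. In all these comparisons each was above those with other passages. For ALA against control they were 0.01, 0.34 and 0.46, and at passage 6 another passage was higher. The cut of 0.1 does not show that the other comparisons were unpaired. The alternatives covered scaling, array weights, variance settings, a filter on dim clusters, passage as a term and left-out arrays.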

Additional observations from a re-analysis of the deposited data

How the results depend on the processing

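In 6 of the 7 comparisons, 0 clusters had an adjusted p under 0.05 (limma) under each of the 26 or 27 alternatives run. In the averaged inhibitor comparison the count was 0 without a block and 8 with passage as a replicate block. Combinations of the block chosen after seeing the data gave 3 without the ALA array of passage 7, 44 with array weights, 7 with centred arrays and 9 with quantile normalization. Leaving out arrays or passages gave 0 to 1. The 8 were Osr2, Arxes1, Car3, Apod, Sfrp2, Pck1, B3galt2 and Hp, all lower. With that block Mgll had an adjusted p of 0.084, and of the members only Mgll was called in any alternative: with block and array weights (-0.57, adjusted p = 0.027; range over the alternatives 0.027 to 1). Over its 26 alternatives the averaged inhibitor difference ran from -0.60 to -0.41 for Mgll and from -0.33 to -0.20 for Pde3b. No sign changed there for members other than Pnpla2. Over all member results, 97 of 1116 alternative values, each uncalled, changed sign, in 20 of 42 results. Counts at an unadjusted p under 0.05 were less stable. For the averaged inhibitor comparison the count was 1936, and ran from 975 (without passage 7) to 3994 (block and array weights). The share of higher clusters among them was 40.8%, against 49.2% after quantile normalization and 63.1% after centring. For inhibitor against control it was 955, with 606 to 2197, and for ALA against control 753, with 444 to 2196. For ALA plus inhibitor the counts were 1607 against ALA (783 to 3327) and 786 against inhibitor (427 to 1562). For averaged ALA it was 781 (443 to 2248) and for the interaction 755 (383 to 1526). Among the pairs, 13 of 18 same-passage correlations exceeded 0.1. Each member had 1 cluster, so no other cluster of a gene could be tried. For inhibitor against control, where not every same-passage correlation exceeded 0.1, the block gave Mgll an unadjusted limma p of 7.2e-04 and an adjusted p of 0.4. With the block the Mgll interaction interval was -0.27 to 0.45.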
